A study of Zea mays with 18 samples.

Results

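The genes described here are the circadian clock genes, the B-box and CONSTANS-LIKE genes and the light receptors with their partners, as expressed in maize roots. They were found by 12 terms in the protein descriptions of the deposited table, such as GIGANTEA, REVEILLE, Cryptochrome and B-box zinc finger protein. The terms took 150 of 47334 genes, and 4 of these matched only because their protein accession contains the letters LNK (a RABA3 GTPase and 3 magnesium transporter genes). The other 146 genes are the subject below. They comprise 19 B-box, 22 CONSTANS-LIKE, 20 REVEILLE, 4 LNK, 16 pseudo-response regulator (PRR), 5 GIGANTEA, 3 ELF4-LIKE, 4 other EARLY FLOWERING and 6 Adagio genes, 17 phytochromes, 11 cryptochromes, 14 PHYTOCHROME INTERACTING FACTOR-LIKE genes and 5 other phytochrome-associated genes. No gene carries the exact term "Protein LHY", because the table spells that name out, so the LHY and CCA1 genes lie outside the selection and are cited separately where the time of day is considered.

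Maize roots of the inbred line ND101 (WT) and of the CRISPR/Cas9 mutants *zmnrt1.1b* and *zmnlp3.1*, made in that line, were sequenced with 3 libraries for each of 6 groups. ZmNRT1.1B is a NO3- transporter, and ZmNLP3.1 belongs to the NIN-like transcription factors. The labels call both mutants knockdowns, and which of the 2 lines of each was sequenced is not given in the sources used here. All groups were raised with full nutrients for 10 days and then starved of N for 4 days under 14 h of light and 10 h of dark. Each genotype next received 5 mM KCl or 5 mM KNO3 for 2 h. The hour of harvest is not given in the sources used here. Nothing in the labels says whether libraries of a group came from separate plants, so p-values measure the spread between these libraries only.

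The plant circadian clock is a loop of transcriptional repressors that are expressed in turn over the day. In Arabidopsis, LHY, CCA1 and some REVEILLE proteins act around dawn, and LNK proteins are coactivators that work with REVEILLE proteins. PRR proteins follow through the day, and GIGANTEA, PRR1 (TOC1) and the evening complex of ELF3, ELF4 and LUX act towards dusk. B-box proteins are zinc-finger transcriptional regulators of light responses, CONSTANS-LIKE proteins add a CCT domain to B-boxes, and phytochromes and cryptochromes are the red and blue light receptors. Arabidopsis roots run a form of this loop that takes signals from the shoot.

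Of the 146 genes, 22 were at 0 in every library, 40 were detected but lay under the expression minimum, and 84 were tested. The minimum was 1 FPKM (fragments scaled to gene length and library size) in at least 3 of the 18 libraries, which 26011 genes of the table passed. Between 16955904 and 19116969 reads per library lay behind the values. The most abundant were the B-box gene Zm00001d003195, with a mean of 201 FPKM over all libraries, the B-box gene Zm00001d017147 with 121 FPKM and the GIGANTEA gene Zm00001d008826 with 102 FPKM. Within groups the 84 genes had a median SD of 0.20 on the log2 scale. That of the 11782 tested genes at like levels was 0.22. The libraries of a group correlated across genes with r between 0.938 and 0.972.

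A gene was called where the limma test on log2(FPKM + 0.1), adjusted over all 26011 genes, gave an adjusted p under 0.05 and a change of over 2-fold. For the difference of a mutant's response from that of WT, the adjusted p alone decided. After KNO3, 4 of the 84 genes rose in WT, beside 2.75% of all genes tested, and 1 fell, beside 2.88% (5.95% against 5.64% in either direction). In *zmnrt1.1b* 1 rose, beside 2.03%, and 8 fell, or 9.52% beside 2.62% of all genes (10.7% against 4.64% in either direction). The *zmnlp3.1* response had 1 gene that rose, beside 1.74%, and 2 that fell, beside 2.29% (3.57% against 4.03% in either direction). The response of 6 genes was lower in *zmnrt1.1b* than in WT, or 7.14% beside 0.969% of all genes (1.51% in either direction). No gene had a higher one, beside 0.542% of all genes, and none had at an unadjusted p under 0.05 or with voom. In *zmnlp3.1* the response of 6 was lower, beside 2.68%, and that of 3 was higher, beside 2.21% (10.7% against 4.89% in either direction).

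Between genotypes under KCl, 1 gene was higher in *zmnrt1.1b* than in WT, beside 1.15% of all genes (2.06% in either direction). None was lower, beside 0.915%, with 3 at an unadjusted p under 0.05 in limma and 0 called by voom. In *zmnlp3.1* under KCl, 1 was higher, beside 0.696%, and 2 were lower, beside 2.96% (3.57% against 3.66% in either direction). Under KNO3, 3 were lower in *zmnrt1.1b*, beside 3.36% of all genes (3.57% against 6.54% in either direction). None was higher, beside 3.18%, with 4 at an unadjusted p under 0.05 in limma and 0 called by voom. In *zmnlp3.1* under KNO3, 1 was higher, beside 3.37%, and 9 were lower, or 10.7% beside 6.33% of all genes (11.9% against 9.7% in either direction). The 9 comparisons share libraries and are not independent of each other. In all, 26 of the 84 genes (31%) were called in at least 1 comparison, beside 23.1% of all genes tested. The median log2 response of the 84 was 0.14 for WT, −0.17 for *zmnrt1.1b* and 0.00 for *zmnlp3.1*, where all genes tested had medians of −0.00, −0.03 and 0.01.

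**Figure D1:**
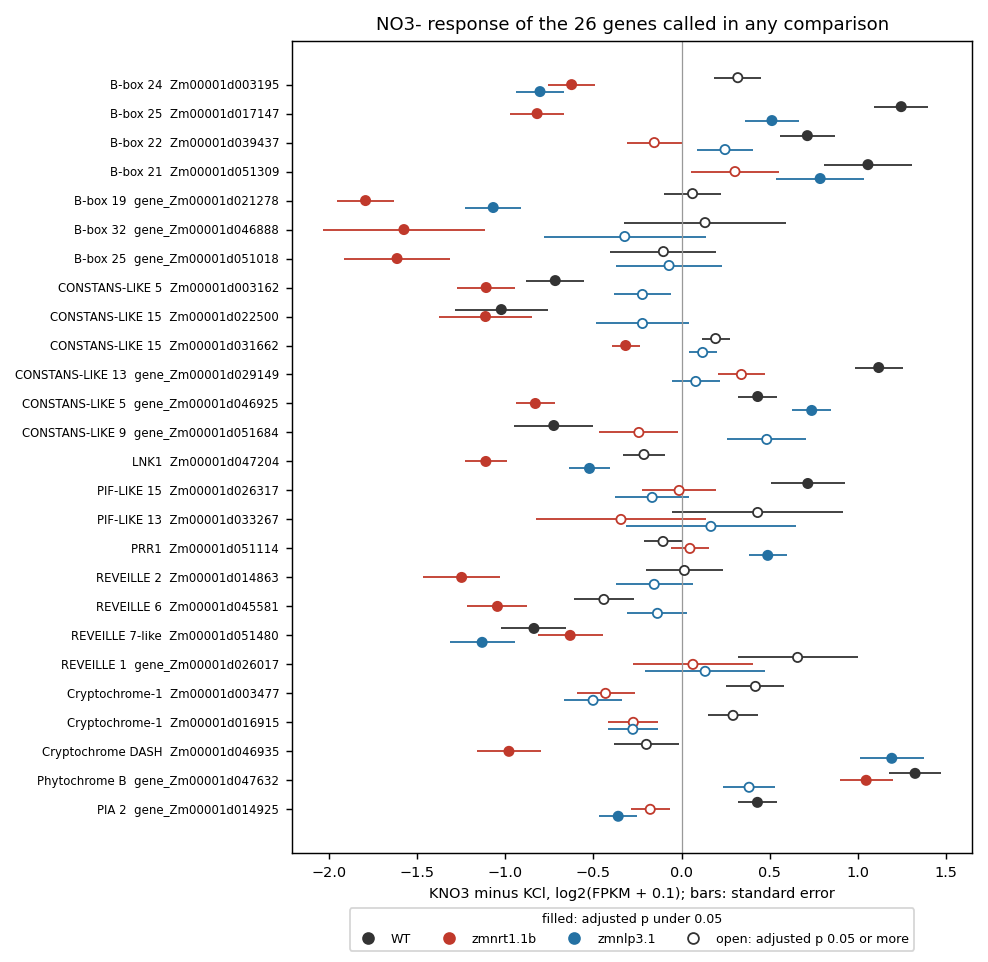
Response to NO3- (KNO3 minus KCl, on the log2(FPKM + 0.1) scale, horizontal axis) of the 26 genes called in any comparison, with standard errors. Black, red and blue points are WT, *zmnrt1.1b* and *zmnlp3.1*, filled where the adjusted p was under 0.05. The B-box gene Zm00001d017147 lies at 1.25 in WT and at −0.82 in *zmnrt1.1b*.

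Of 16 B-box genes tested, 2 rose after KNO3 in WT, beside 2.75% of all genes. In *zmnrt1.1b* 3 fell, beside 2.62%, and in *zmnlp3.1* 1 fell, beside 2.29%. The largest difference of response belonged to Zm00001d017147, described as B-box zinc finger protein 25 (chromosome 5, 187053602 to 187054914, B73 RefGen_v4). In Arabidopsis, BBX25 and its relative BBX24 restrain the light regulator HY5. In WT its levels were 96.7, 71.0 and 67.2 FPKM under KCl and 182, 183 and 186 FPKM under KNO3. In *zmnrt1.1b* they were 154, 133 and 140 FPKM under KCl and 79.8, 76.9 and 84.7 FPKM under KNO3. In *zmnlp3.1* they were 130, 88.3 and 84.6 FPKM under KCl and 140, 143 and 142 FPKM under KNO3. KNO3 and KCl libraries did not overlap in any genotype, and the order of the treatments in *zmnrt1.1b* was opposite to that in WT and *zmnlp3.1*. The log2 response was 1.25 ± 0.15 (SE) in WT (limma, adjusted p = 4.2e-05) and −0.82 ± 0.15 in *zmnrt1.1b* (adjusted p = 0.0026), a change under 2-fold. The difference of these responses was −2.07 ± 0.22 (adjusted p = 0.00059). In *zmnlp3.1* the response was 0.51 ± 0.15, and its difference from WT of −0.73 ± 0.22 missed the threshold (adjusted p = 0.060). Under KCl the gene was higher in *zmnrt1.1b* than in WT by 0.88 ± 0.15 at an adjusted p of 0.0036, without reaching 2-fold, and under KNO3 it was lower by 2-fold or more, with a log2 difference of −1.19 ± 0.15 (adjusted p = 9.6e-05).

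The gene gene_Zm00001d021278, described as B-box zinc finger protein 19 (chromosome 7, 147632776 to 147636889), fell in both mutants and was not called in WT. BBX19 of Arabidopsis acts on flowering and seedling growth with CONSTANS and the evening complex. WT libraries had 10.8, 10.6 and 8.25 FPKM under KCl and 11.1, 11.7 and 8.34 FPKM under KNO3. Those of *zmnrt1.1b* had 15.8, 11.5 and 13.9 FPKM under KCl and 3.54, 3.92 and 4.15 FPKM under KNO3. Those of *zmnlp3.1* had 18.8, 14.3 and 17.9 FPKM under KCl and 8.41, 7.37 and 8.27 FPKM under KNO3. Treatments overlapped in WT and were apart in both mutants, where KCl was the higher one. The log2 response was 0.06 ± 0.16 in WT (adjusted p = 0.87), −1.79 ± 0.16 in *zmnrt1.1b* (adjusted p = 7.5e-06) and −1.07 ± 0.16 in *zmnlp3.1* (adjusted p = 0.00062). Both responses were lower than that of WT, by −1.86 ± 0.23 (adjusted p = 0.0026) and −1.13 ± 0.23 (adjusted p = 0.011). Under KNO3 the gene was also lower in *zmnrt1.1b* than in WT, by −1.39 ± 0.16 (adjusted p = 4.2e-05). The fall in *zmnlp3.1* was no longer called at a pseudocount of 1 FPKM or without *zmnlp3.1* KCl replicate 1, with log2 values of −1.19 to −0.99 over all fits.

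The other tested gene with the BBX19 description, Zm00001d006198 on chromosome 2, had group means between 14.6 and 18.0 FPKM and log2 responses of −0.23, −0.29 and −0.30 in WT, *zmnrt1.1b* and *zmnlp3.1*, none at an adjusted p under 0.05. Each of these B-box genes lies near a PRR95 gene. On chromosome 7 the gap from gene_Zm00001d021278 to Zm00001d021291 was 429 kb, and on chromosome 2 the gap from Zm00001d006198 to Zm00001d006212 was 558 kb.

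Zm00001d003195, described as B-box zinc finger protein 24, was the most abundant gene of the set, and its response in both mutants differed from that in WT. It had 199, 185 and 194 FPKM in WT under KCl and 262, 249 and 213 FPKM under KNO3. Values in *zmnrt1.1b* were 294, 252 and 264 FPKM under KCl and 215, 165 and 150 FPKM under KNO3. Values in *zmnlp3.1* were 210, 194 and 212 FPKM under KCl and 133, 107 and 115 FPKM under KNO3. KNO3 libraries were the higher ones in WT and the lower ones in both mutants, without overlap. The WT response of 0.32 ± 0.13 did not pass the test (adjusted p = 0.15), and those of the mutants were −0.62 ± 0.13 and −0.80 ± 0.13 (adjusted p = 0.0063 and 0.0013). The responses differed from WT by −0.94 ± 0.19 in *zmnrt1.1b* (adjusted p = 0.023) and −1.12 ± 0.19 in *zmnlp3.1* (adjusted p = 0.0050). The former call was lost in 6 of the 18 fits that left out 1 library, where the difference spanned −1.09 to −0.83 over all fits. Compared with WT under KNO3, the *zmnlp3.1* level was lower by −1.03 ± 0.13 (adjusted p = 5.9e-05), a call lost under total read scaling and without WT KNO3 replicate 1 or *zmnlp3.1* KNO3 replicate 3 (−1.12 to −0.89).

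**Figure D2:**
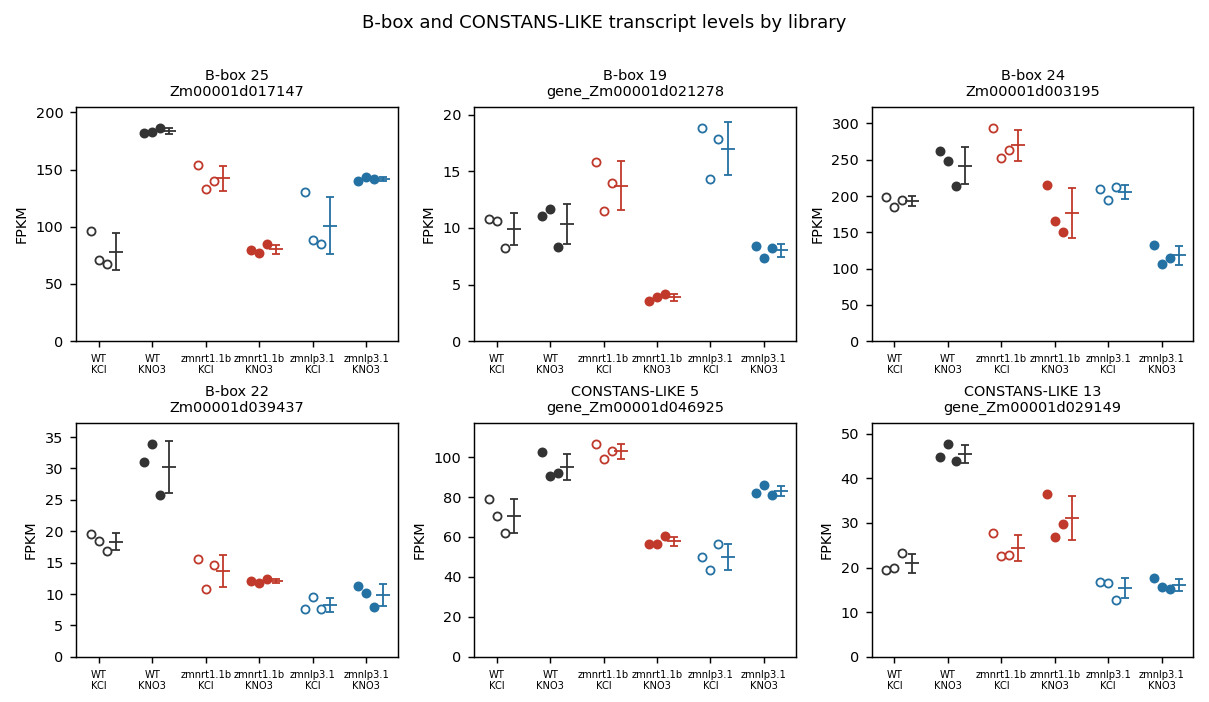
Levels of 4 B-box and 2 CONSTANS-LIKE genes in FPKM (vertical axes, from 0) in each library of the 6 groups, with open points for KCl, filled points for KNO3, and the mean ± SD of 3 libraries beside them. In *zmnrt1.1b* the filled points of Zm00001d017147, gene_Zm00001d021278, Zm00001d003195 and gene_Zm00001d046925 lie below the open ones.

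Zm00001d039437 is described as B-box zinc finger protein 22, a family member that promotes light responses in Arabidopsis. It was called lower than in WT in both mutants under KNO3, and in *zmnlp3.1* also under KCl. WT had 19.6, 18.5 and 16.9 FPKM under KCl and 31.1, 33.9 and 25.8 FPKM under KNO3. The *zmnrt1.1b* values were 15.6, 10.7 and 14.6 FPKM under KCl and 12.1, 11.8 and 12.3 FPKM under KNO3. The *zmnlp3.1* values were 7.6, 9.46 and 7.63 FPKM under KCl and 11.3, 10.2 and 7.96 FPKM under KNO3. All mutant libraries lay below all WT libraries of the same treatment. Relative to WT the gene was lower under KNO3 by −1.31 ± 0.16 in *zmnrt1.1b* (adjusted p = 6.0e-05) and by −1.62 ± 0.16 in *zmnlp3.1* (adjusted p = 4.6e-06), and under KCl by −1.15 ± 0.16 in *zmnlp3.1* (adjusted p = 0.00053). Under KCl the difference between *zmnrt1.1b* and WT did not pass the test. Neither response differed from that of WT at the threshold (adjusted p = 0.064 and 0.24).

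Further B-box genes were called in single comparisons. Zm00001d051309, described as B-box zinc finger protein 21, which activates HY5 in Arabidopsis, rose in WT from 13.1 ± 1.3 to 27.5 ± 3.0 FPKM (mean ± SD, n = 3), a log2 response of 1.06 ± 0.25. This was not called under total read scaling or without WT KCl replicate 2 or WT KNO3 replicate 3 (0.99 to 1.15 over all fits). In *zmnrt1.1b*, gene_Zm00001d051018, the other BBX25 gene, fell from 5.00 ± 0.81 to 1.70 ± 0.84 FPKM (log2 −1.62 ± 0.30, adjusted p = 0.0027 in limma). There gene_Zm00001d046888, described as B-box zinc finger protein 32, fell from 4.24 ± 1.5 to 1.38 ± 0.55 FPKM (log2 −1.58 ± 0.46). Its values rested on 7 to 68 reads per library, and the call was lost with no expression minimum and without *zmnrt1.1b* KCl replicate 3, KCl replicate 4 or KNO3 replicate 2 (−1.82 to −1.13). The 16 B-box genes had a median log2 response of 0.09 in WT, of −0.60 in *zmnrt1.1b* and of −0.20 in *zmnlp3.1*.

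Of 11 CONSTANS-LIKE genes tested, 1 rose and 1 fell in WT, beside 2.75% and 2.88% of all genes. In *zmnrt1.1b* 2 fell, beside 2.62%. None was called in *zmnlp3.1*, beside 4.03% in either direction. There limma gave 4 an unadjusted p under 0.05 and voom called 0. The most abundant, gene_Zm00001d046925 (CONSTANS-LIKE 5, chromosome 9), had 79.1, 70.5 and 62.0 FPKM in WT under KCl and 102, 90.3 and 92.0 FPKM under KNO3. Its *zmnrt1.1b* values were 107, 99.0 and 103 FPKM under KCl and 56.3, 56.7 and 60.3 FPKM under KNO3. Its *zmnlp3.1* values were 49.9, 43.6 and 56.6 FPKM under KCl and 82.2, 86.1 and 81.1 FPKM under KNO3. As for Zm00001d017147, the treatments were apart in each genotype, and KNO3 was the lower one in *zmnrt1.1b* alone. The responses were 0.43 ± 0.11, −0.83 ± 0.11 and 0.74 ± 0.11 on the log2 scale, and that of *zmnrt1.1b* differed from WT by −1.26 ± 0.15 (adjusted p = 0.0026). The difference of 0.31 ± 0.15 in *zmnlp3.1* did not pass the test (adjusted p = 0.27).

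For gene_Zm00001d029149, described as CONSTANS-LIKE 13, WT had 19.5, 19.9 and 23.3 FPKM under KCl and 44.7, 47.7 and 44.0 FPKM under KNO3. In *zmnlp3.1* it had 16.7, 16.6 and 12.8 FPKM under KCl and 17.7, 15.6 and 15.2 FPKM under KNO3. In *zmnrt1.1b* it had 27.8, 22.6 and 22.8 FPKM under KCl and 36.6, 26.9 and 29.7 FPKM under KNO3. Treatments were far apart in WT and overlapped in both mutants. It rose in WT by 1.12 ± 0.14 (adjusted p = 3.9e-05), and the response of *zmnlp3.1* was lower by −1.04 ± 0.19 (adjusted p = 0.0073). The difference of −0.78 ± 0.19 for *zmnrt1.1b* just missed the threshold (adjusted p = 0.055). Compared with WT under KNO3, *zmnlp3.1* was lower by −1.49 ± 0.14 (adjusted p = 2.4e-06).

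Among the other called CONSTANS-LIKE genes, Zm00001d022500 (CONSTANS-LIKE 15) fell in WT from 3.72 ± 0.64 to 1.86 ± 0.70 FPKM and in *zmnrt1.1b* from 2.95 ± 0.48 to 1.33 ± 0.36 FPKM. The WT call was lost without WT KCl replicate 1, KCl replicate 2 or KNO3 replicate 3 (log2 −1.23 to −0.69 over all fits), the *zmnrt1.1b* call without KNO3 replicate 2 (−1.31 to −0.77), and both at a pseudocount of 1 FPKM. In the model of only the groups compared the WT call was lost as well. Zm00001d003162 (CONSTANS-LIKE 5) fell in *zmnrt1.1b* from 15 ± 2.5 to 6.85 ± 0.79 FPKM, and its WT response of −0.72 ± 0.16 was under 2-fold. Zm00001d031662 (CONSTANS-LIKE 15) had a lower response in *zmnrt1.1b* than in WT by −0.51 ± 0.11 (adjusted p = 0.036). That call was lost in 10 of 18 fits without 1 library, under total read scaling and with a replicate block. For gene_Zm00001d051684 (CONSTANS-LIKE 9) under KNO3, *zmnlp3.1* had 2.17 ± 0.35 FPKM and WT 0.985 ± 0.31 FPKM, the 1 gene of the set that was higher there. This call was lost at a pseudocount of 1 FPKM and without WT KNO3 replicate 4 (log2 0.68 to 1.3 over all fits). The difference of its response, 1.21 ± 0.32 (adjusted p = 0.039), was lost in 13 of the 18 fits that left out 1 library, with a replicate block, with no expression minimum and in the model of only the groups compared.

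Of the dawn genes, 10 REVEILLE and 3 LNK genes were tested. In WT none of the 13 was called after KNO3, beside 5.64% of all genes in either direction. There limma gave 3 an unadjusted p under 0.05 and voom called 0. In *zmnrt1.1b* 3 fell, beside 2.62%, and in *zmnlp3.1* 1 fell, beside 2.29%. The LNK1 gene Zm00001d047204 (chromosome 9, 121905287 to 121910624) encodes a coactivator that works with REVEILLE proteins in Arabidopsis. It had 28.8, 30.2 and 28.4 FPKM in WT under KCl and 26.9, 25.6 and 23.0 FPKM under KNO3. The *zmnrt1.1b* libraries had 35.4, 32 and 38.2 FPKM under KCl and 18.9, 14.8 and 15.3 FPKM under KNO3. The *zmnlp3.1* libraries had 40.9, 39.3 and 47.7 FPKM under KCl and 33.0, 26.9 and 29.0 FPKM under KNO3. KCl libraries were the higher ones in every genotype. The response of −1.11 ± 0.12 in *zmnrt1.1b* passed both thresholds (adjusted p = 3.4e-05), and those of −0.21 ± 0.12 in WT and −0.52 ± 0.12 in *zmnlp3.1* did not. The *zmnrt1.1b* response was lower than that of WT by −0.90 ± 0.17 (adjusted p = 0.017), which was lost without WT KNO3 replicate 1, WT KNO3 replicate 3 or *zmnrt1.1b* KCl replicate 2 (−1.01 to −0.83 over all fits). The second LNK1 gene, Zm00001d029378, had a response of −0.64 ± 0.15 in *zmnrt1.1b* and 0.14 ± 0.15 in WT, and the difference of −0.78 ± 0.21 did not pass the test (adjusted p = 0.072). The LNK2 gene Zm00001d009330 had responses of −0.04, −0.09 and 0.29 in WT, *zmnrt1.1b* and *zmnlp3.1*.

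The REVEILLE 2 gene Zm00001d014863 encodes an LHY-related MYB protein. Its WT values were 2.28, 1.65 and 2.05 FPKM under KCl and 1.83, 2.03 and 2.15 FPKM under KNO3. Its *zmnrt1.1b* values were 3.85, 4.25 and 5.98 FPKM under KCl and 1.47, 1.81 and 2.49 FPKM under KNO3. Its *zmnlp3.1* values were 5.53, 3.48 and 4.39 FPKM under KCl and 3.86, 3.70 and 4.26 FPKM under KNO3. Both mutants lay above WT under KCl, and *zmnrt1.1b* overlapped WT under KNO3. Under KCl the gene was higher than in WT by 1.18 ± 0.22 in *zmnrt1.1b* (adjusted p = 0.0055) and by 1.11 ± 0.22 in *zmnlp3.1* (adjusted p = 0.0048), and it fell after KNO3 in *zmnrt1.1b* by 1.25 on the log2 scale (adjusted p = 0.0017 in limma). At a pseudocount of 1 FPKM none of these 3 changes was called. That of *zmnrt1.1b* under KCl was also lost without its KCl replicate 4 (0.92 to 1.31 over all fits), and that of *zmnlp3.1* under KCl with a replicate block and without WT KCl replicate 2 or *zmnlp3.1* KCl replicate 1 (0.86 to 1.28). The difference of the *zmnrt1.1b* response from WT was −1.27 ± 0.31 (adjusted p = 0.052).

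Of the 4 genes described as REVEILLE 6, a group that includes afternoon activators in Arabidopsis, Zm00001d045581 fell in *zmnrt1.1b* from 9.19 ± 0.94 to 4.51 ± 1.4 FPKM (log2 −1.05 ± 0.17). That call was lost without *zmnrt1.1b* KCl replicate 2, KNO3 replicate 2 or KNO3 replicate 4, and at a pseudocount of 1 FPKM (−1.27 to −0.89 over all fits). Zm00001d036632, Zm00001d046974 and Zm00001d017609 had responses between −0.25 and 0.26 in the 3 genotypes, none called. The REVEILLE 7-like gene Zm00001d051480 had a negative response in all genotypes, −0.84 ± 0.18 in WT, −0.63 ± 0.18 for *zmnrt1.1b* and −1.13 ± 0.18 for *zmnlp3.1*, and only the last was over 2-fold. It was lost without *zmnlp3.1* KCl replicate 3 and at a pseudocount of 1 FPKM (−1.23 to −0.88). The REVEILLE 1 gene gene_Zm00001d026017 was lower in *zmnlp3.1* than in WT under KNO3, with 0.888 ± 0.44 against 1.79 ± 0.24 FPKM. This call was lost under total read scaling, at a pseudocount of 1 FPKM, in the model of only the groups compared and in 4 of 18 fits without 1 library (−1.36 to −0.58). The most abundant, Zm00001d023295 (REVEILLE 4), had group means of 16.3 to 19.7 FPKM and was called in no comparison. Zm00001d017642, another REVEILLE 1 gene, had group means of 0.609 to 1.42 FPKM.

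Of 8 PRR genes, repressors that follow each other through the day, none was called in the response of any genotype by limma or voom. Beside this stand 5.64%, 4.64% and 4.03% of all genes in either direction in WT, *zmnrt1.1b* and *zmnlp3.1*. In limma 3 of WT, 2 of *zmnrt1.1b* and 4 of *zmnlp3.1* had an unadjusted p under 0.05. The PRR73 gene gene_Zm00001d047761 had 37.0, 42.1 and 39.8 FPKM in WT under KCl and 44.6, 47.3 and 43.6 FPKM under KNO3. For *zmnrt1.1b* the values were 41.3, 38.9 and 40.6 FPKM under KCl and 30.3, 37.5 and 38.6 FPKM under KNO3. For *zmnlp3.1* the values were 39.7, 42.4 and 40.9 FPKM under KCl and 48.2, 39.2 and 42.0 FPKM under KNO3. The highest group mean was 1.27 times the lowest. The PRR37 gene Zm00001d007240 was weak, with group means of 1.48 to 2.32 FPKM, and was not called.

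The PRR95 gene Zm00001d006212 had group means of 15.6 ± 1.5 FPKM under KCl and 23.0 ± 3.0 FPKM under KNO3 in WT, and of 11.0 ± 0.94 and 20.7 ± 1.8 FPKM in *zmnlp3.1* (log2 responses 0.55 ± 0.16 and 0.91 ± 0.16, adjusted p = 0.033 and 0.0021 in limma). In *zmnrt1.1b* the response was 0.21 ± 0.16. The other PRR95 gene, Zm00001d021291, had responses of 0.09, −0.40 and 0.43 in WT, *zmnrt1.1b* and *zmnlp3.1*. The 2 APRR5 genes, Zm00001d052781 and gene_Zm00001d004875, had WT responses of 0.50 ± 0.11 and 0.23 ± 0.11, and of 0.13 to 0.19 in the mutants.

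**Figure D3:**
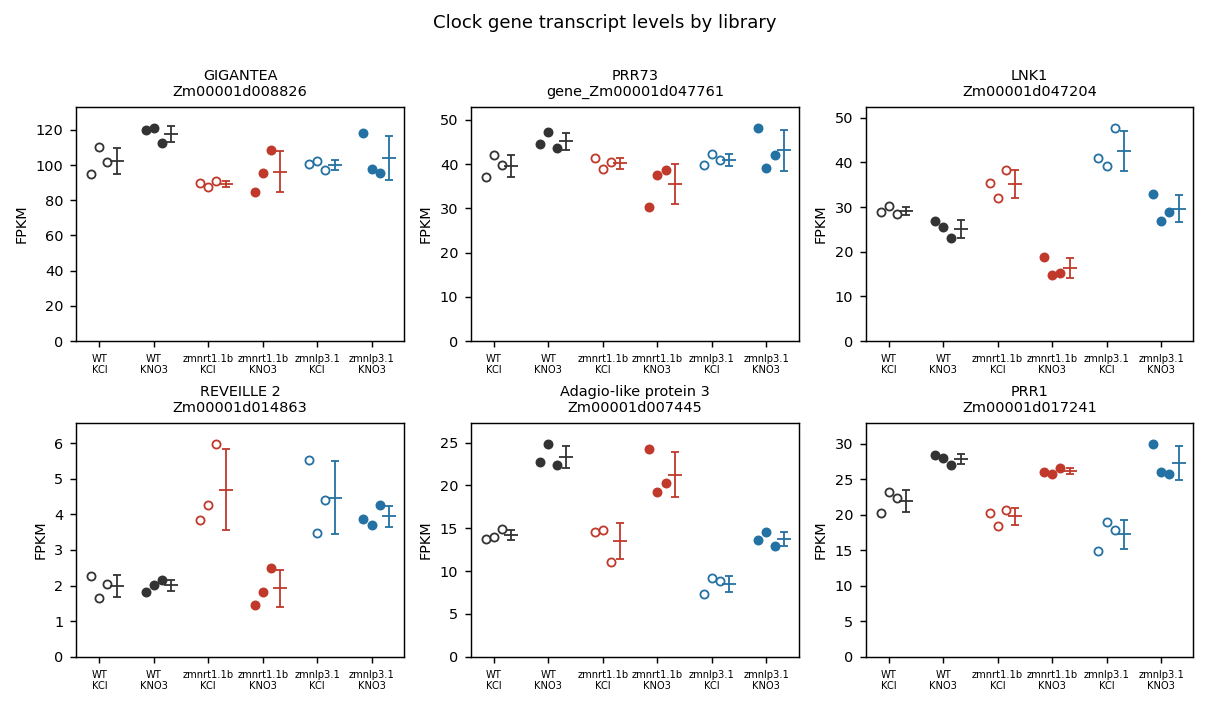
Levels of 6 clock genes in FPKM (vertical axes, from 0) in each library of the 6 groups, with open points for KCl, filled points for KNO3, and the mean ± SD of 3 libraries beside them. GIGANTEA and PRR73 stay within narrow ranges, whereas LNK1 Zm00001d047204 spans 14.8 to 47.7 FPKM.

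Among the dusk genes, both expressed GIGANTEA genes, which encode a large protein that stabilises the Adagio (ZEITLUPE) light receptors, varied little. Zm00001d008826 (chromosome 8, 21787238 to 21795721) had 94.9, 110 and 102 FPKM in WT under KCl and 120, 121 and 113 FPKM under KNO3. In *zmnrt1.1b* it had 89.9, 87.3 and 90.7 FPKM under KCl and 84.8, 95.6 and 108 FPKM under KNO3. In *zmnlp3.1* it had 101, 102 and 97.1 FPKM under KCl and 118, 98.0 and 95.3 FPKM under KNO3. Its highest group mean was 1.32 times the lowest, and the responses were 0.21 ± 0.11, 0.10 ± 0.11 and 0.05 ± 0.11 (adjusted p = 0.26, 0.57 and 0.81). Zm00001d039589 had group means of 17.8 to 22.7 FPKM, a ratio of 1.27. The other 3 GIGANTEA genes were at or near 0.

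The PRR1 gene Zm00001d017241, whose Arabidopsis relative TOC1 represses the dawn genes, had responses of 0.35 ± 0.10, 0.40 ± 0.10 and 0.66 ± 0.10 in WT, *zmnrt1.1b* and *zmnlp3.1*, all at an adjusted p under 0.05 and under 2-fold. Zm00001d051114, the second PRR1 gene, had responses of −0.11, 0.05 and 0.49, and that of *zmnlp3.1* was higher than in WT by 0.59 ± 0.15 (adjusted p = 0.035). This was lost in 9 of 18 fits without 1 library and with a replicate block. The 3 ELF4-LIKE genes, gene_Zm00001d020364, gene_Zm00001d047269 and gene_Zm00001d048801, were called in no comparison by limma or voom, beside 23.1% of all genes tested that limma called in at least 1. The largest value among them was the *zmnlp3.1* response of −0.90 ± 0.24 in gene_Zm00001d048801 (adjusted p = 0.023).

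Of 5 Adagio genes tested, none was called in any comparison by limma or voom, although 1 of WT, 2 of *zmnrt1.1b* and 5 of *zmnlp3.1* had responses at an unadjusted p under 0.05. Zm00001d007445, an Adagio-like protein 3 gene (FKF1 in Arabidopsis, a blue light receptor that controls CONSTANS), had the largest responses of these. WT had 13.8, 13.9 and 14.9 FPKM under KCl and 22.7, 24.8 and 22.4 FPKM under KNO3. The *zmnrt1.1b* libraries had 14.6, 14.8 and 11.1 FPKM under KCl and 24.2, 19.3 and 20.3 FPKM under KNO3. The *zmnlp3.1* libraries had 7.39, 9.25 and 8.83 FPKM under KCl and 13.7, 14.6 and 12.9 FPKM under KNO3. KNO3 libraries were the higher ones in each genotype, and *zmnlp3.1* lay below WT in both treatments. The responses were 0.71, 0.66 and 0.69 (SE 0.13, adjusted p = 0.0012, 0.0033 and 0.0025), and neither mutant's response differed from that of WT (adjusted p = 0.91 and 0.97). Zm00001d053091, the other Adagio 3 gene, had responses of 0.01, 0.29 and 0.44. Zm00001d014594, Zm00001d036524 and Zm00001d015290, described as Adagio 1 or 2, had responses between −0.33 and −0.03.

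As a check on the time of day, the tested genes were averaged by class in each library, as deviations on the log2 scale from each gene's mean over the 18 libraries. The 13 dawn genes averaged −0.11 to −0.02 in WT under KCl and −0.09 to 0.00 under KNO3. In *zmnrt1.1b* they averaged 0.11 to 0.28 under KCl and −0.34 to −0.03 under KNO3. In *zmnlp3.1* they averaged 0.11 to 0.20 under KCl and −0.13 to 0.00 under KNO3. Mutant libraries under KCl lay above all WT libraries, and those of *zmnrt1.1b* under KNO3 overlapped with WT at one end.

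The 6 day genes averaged −0.05 to −0.00 in WT under KCl and 0.04 to 0.36 under KNO3, and −0.08 to −0.02 and −0.16 to −0.06 in *zmnrt1.1b*. In *zmnlp3.1* they averaged −0.27 to −0.10 under KCl and −0.03 to 0.26 under KNO3. The average of the 9 dusk genes was higher under KNO3 in every genotype, with means under KCl and KNO3 of 0.04 and 0.18 in WT, −0.02 and 0.14 for *zmnrt1.1b*, and −0.24 and −0.10 for *zmnlp3.1*. A log2 response above 0 was seen for 6 of the 9 genes of WT, 8 of *zmnrt1.1b* and 7 of *zmnlp3.1*. No response of these genes was called by limma or voom, beside 5.64%, 4.64% and 4.03% of all genes in either direction in that order. In the same order 2, 2 and 5 of them had an unadjusted p under 0.05. All group means of the 3 classes lay between −0.24 and 0.25, that is, under 2-fold apart. This holds for the class averages only, since single dawn genes passed 2-fold between groups, as given above. The LHY and CCA1 genes are not in the averages. A difference in harvest time between groups cannot be told apart from treatment or genotype, because no hour is given for any library.

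**Figure D4:**
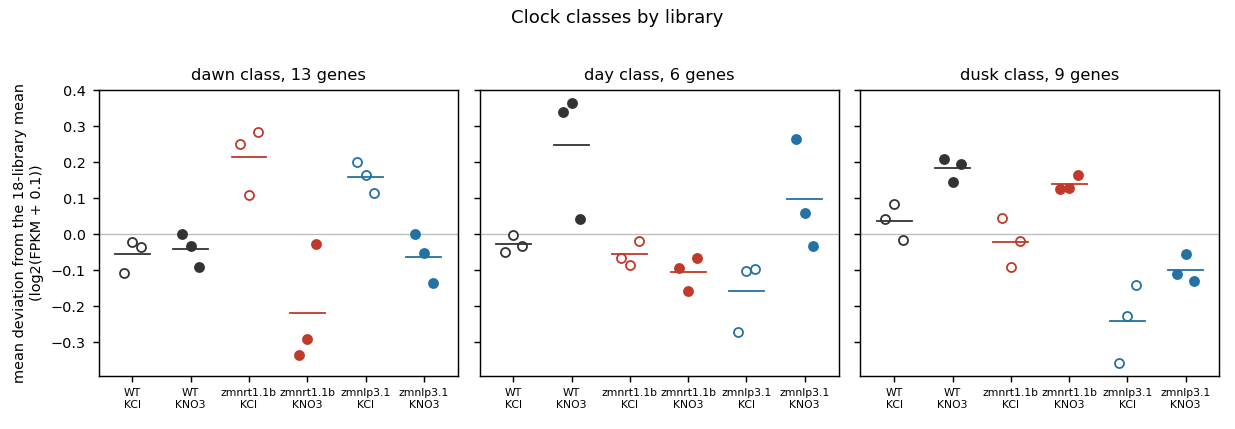
Mean deviation of 13 dawn, 6 day and 9 dusk genes from their 18-library means (vertical axis, log2(FPKM + 0.1)) in each library, with open points for KCl, filled points for KNO3 and lines for the group means. Dawn genes of *zmnrt1.1b* lie at 0.11 to 0.28 under KCl and at −0.34 to −0.03 under KNO3.

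The genes named LHY and CCA1, which were looked up after the table had been seen, had unlike responses. The LHY gene gene_Zm00001d049543 had 7.65, 9.61 and 6.09 FPKM in WT under KCl and 8.51, 9.73 and 7.32 FPKM under KNO3. For *zmnrt1.1b* the values were 13.1, 8.95 and 13.6 FPKM under KCl and 3.98, 5.08 and 3.94 FPKM under KNO3. For *zmnlp3.1* the values were 19.5, 12.3 and 18.7 FPKM under KCl and 6.69, 6.87 and 6.81 FPKM under KNO3. Like gene_Zm00001d021278 it overlapped between treatments in WT and fell in both mutants, by 1.42 and 1.27 on the log2 scale (adjusted p = 0.00044 and 0.0011 in limma). The other LHY gene, Zm00001d024546, had responses of 0.44, 0.10 and 0.30, and Zm00001d024547 (CCA1), 19.4 kb from it on chromosome 10, had 0.42, 0.35 and −0.33. For neither of these did a mutant's response differ from that of WT at the threshold (limma, adjusted p = 0.23 to 0.95). The ELF3-like gene Zm00001d039156 had 18.2 ± 1.5 FPKM in WT under KCl and 36.8 ± 5.7 FPKM under KNO3 (adjusted p = 0.00020). Its log2 response of 1.0009 lay on the 2-fold limit, and the call was lost under total read scaling, at a pseudocount of 1 FPKM and in 2 of 18 fits without 1 library (0.88 to 1.12). Of the 3 genes described as PCL1 (LUX of the evening complex), gene_Zm00001d011785 was lower in *zmnlp3.1* under KCl than in WT, with a log2 difference of −1.10 ± 0.28 (adjusted p = 0.020). That call was lost at a pseudocount of 1 FPKM, with a replicate block, in the model of only the groups compared and in 3 of 18 fits without 1 library (−1.43 to −0.76). Zm00001d041960 and Zm00001d042892, the other PCL1 genes, were not called in any comparison by limma.

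Of 8 phytochrome genes tested, 1 was called in at least 1 comparison, beside 23.1% of all genes tested. For gene_Zm00001d047632, described as phytochrome B (chromosome 9, 137491058 to 137497818), WT had 4.36, 5.56 and 5.70 FPKM under KCl and 12.6, 14.7 and 12.2 FPKM under KNO3. In *zmnrt1.1b* it had 4.82, 5.04 and 5.35 FPKM under KCl and 13.2, 9.12 and 9.82 FPKM under KNO3. In *zmnlp3.1* it had 4.65, 4.48 and 5.21 FPKM under KCl and 7.04, 6.16 and 5.64 FPKM under KNO3. All KNO3 libraries lay above the KCl libraries of their genotype, with the smallest gap in *zmnlp3.1*. It rose by 1.33 ± 0.15 in WT (adjusted p = 2.1e-05) and 1.05 ± 0.15 in *zmnrt1.1b* (adjusted p = 0.00042), and its response of 0.38 ± 0.15 in *zmnlp3.1* was lower than that of WT by −0.94 ± 0.21 (adjusted p = 0.019). This last call was lost without WT KNO3 replicate 3 or *zmnlp3.1* KNO3 replicate 4 (−1.11 to −0.82 over all fits), and the *zmnrt1.1b* rise without its KNO3 replicate 2 and at a pseudocount of 1 FPKM (0.89 to 1.15). Set against WT under KNO3, *zmnlp3.1* was lower by −1.06 ± 0.15 (adjusted p = 0.00012), a call lost under total read scaling, at a pseudocount of 1 FPKM and without WT KNO3 replicate 3 or *zmnlp3.1* KNO3 replicate 4 (−1.16 to −0.92). The second phytochrome B gene, gene_Zm00001d028905, had responses of 0.71, 0.47 and 0.06. The most abundant phytochrome, the phytochrome A gene gene_Zm00001d033799, had group means of 16.7 to 25.4 FPKM and was not called.

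Of 6 cryptochrome genes, 3 were called in at least 1 comparison, beside 23.1% of all genes tested. The cryptochrome-1 gene Zm00001d003477 had 7.22, 6.83 and 5.86 FPKM in WT under KNO3 and 3.28, 2.86 and 2.58 FPKM in *zmnlp3.1*, a log2 difference of −1.16 ± 0.16 (adjusted p = 0.00012). The *zmnlp3.1* response was below that of WT by −0.92 ± 0.23 (adjusted p = 0.033). That call was lost in 8 of 18 fits without 1 library, under total read scaling and in the model of only the groups compared (−1.12 to −0.77). The most abundant, Zm00001d016915, had 14.8, 15 and 12.2 FPKM in WT under KNO3 and 8.35, 5.99 and 5.87 FPKM in *zmnlp3.1*, a log2 difference of −1.05 ± 0.14 (adjusted p = 7.7e-05). No KNO3 library of *zmnlp3.1* reached the WT values in either gene. The former call of a level was lost at a pseudocount of 1 FPKM, and the latter also under total read scaling and without *zmnlp3.1* KNO3 replicate 3 or 4 (−1.22 to −0.92).

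The cryptochrome DASH gene Zm00001d046935, of a family that repairs DNA in organelles, had 3.48, 3.43 and 3.40 FPKM in WT under KCl and 2.66, 3.84 and 2.58 FPKM under KNO3. The *zmnrt1.1b* libraries had 4.58, 4.25 and 4.89 FPKM under KCl and 2.19, 2.12 and 2.49 FPKM under KNO3. The *zmnlp3.1* libraries had 2.03, 1.95 and 1.31 FPKM under KCl and 4.56, 4.21 and 3.57 FPKM under KNO3. The treatments overlapped in WT and were apart, in opposite order, in the mutants. It rose in *zmnlp3.1* by 1.19 ± 0.18 (adjusted p = 0.00076), more than in WT by 1.39 ± 0.26 (adjusted p = 0.0074), and the rise was not called at a pseudocount of 1 FPKM. Its response of −0.98 ± 0.18 in *zmnrt1.1b* was under 2-fold. Zm00001d050851 and gene_Zm00001d050850, both described as cryptochrome-1, overlap by 2.88 kb on opposite strands of chromosome 4. Since the library preparation as described does not mark strand, reads inside the overlap cannot be told apart.

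Among the phytochrome partners, the PHYTOCHROME INTERACTING FACTOR-LIKE 15 gene Zm00001d026317 measured 3.61 ± 0.25 FPKM for WT but 1.39 ± 0.14 FPKM for *zmnlp3.1* under KNO3, a log2 difference of −1.32 ± 0.21 (adjusted p = 0.00031 in limma). Zm00001d033267, PHYTOCHROME INTERACTING FACTOR-LIKE 13, was lower in *zmnlp3.1* under both treatments, by −1.67 ± 0.48 under KCl and −1.94 ± 0.48 under KNO3. It had only 3 to 50 reads per library. The gene passed the expression minimum only through WT KCl replicate 1, WT KNO3 replicate 3 and WT KNO3 replicate 4, a selection that favours a level below WT. It was not tested without any 1 of these. Of the fits without 1 library that tested it, 7 lost the KCl call (−2.12 to −0.60). The KCl call was also lost in the model of only the groups compared. Both calls were kept at a minimum of 0.1 FPKM and with none. At a pseudocount of 1 FPKM none of these 3 differences was called. The gene gene_Zm00001d014925, a phytochrome-interacting ankyrin-repeat protein, had responses of 0.43 ± 0.11 in WT and −0.36 ± 0.11 in *zmnlp3.1*, which differed by −0.79 ± 0.15 (adjusted p = 0.0096).

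Of 79 other genes of light and clock signalling, such as COP1, SPA1-related, FAR1-related, phototropin and casein kinase II genes, 57 were tested. The PCL1 genes given above are among them. After KNO3, 1 of them rose in WT (1.75% beside 2.75% of all genes), 3 fell in *zmnrt1.1b* (5.26% beside 2.62%) and 2 rose in *zmnlp3.1* (3.51% beside 1.74%). No other response was called by limma, beside 2.88% of all genes that fell in WT, 2.03% that rose in *zmnrt1.1b* and 2.29% that fell in *zmnlp3.1*. The response of 2 was lower in *zmnrt1.1b* than in WT (3.51% beside 0.969%). For *zmnlp3.1* that of 1 was higher (1.75% beside 2.21%) and that of 1 lower (1.75% beside 2.68%). Under KNO3, each mutant had 1 of these genes above WT (1.75% beside 3.18% for *zmnrt1.1b* and 3.37% for *zmnlp3.1*). Under KCl, 2 were higher and 1 was lower in *zmnrt1.1b* (5.26% beside 2.06% of all genes in either direction). In *zmnlp3.1* under KCl, 1 was lower (1.75% beside 2.96%), the PCL1 gene gene_Zm00001d011785 already given above.

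Root and green-tissue markers were read in the same libraries. The 6 genes for Casparian strip membrane proteins, which mark the root endodermis, were all detected. They summed to 52.5 to 85.0 FPKM in WT and 40.3 to 61.5 FPKM in *zmnlp3.1*. In *zmnrt1.1b* they summed to 34.2 to 65.4 FPKM under KCl and 19.8 to 43.8 FPKM under KNO3. Of 53 photosynthesis genes, 22 reached 1 FPKM in any library and 8 were at 0 in all. Their sum was 41.3 to 43.3 FPKM in WT under KCl, 60.2 to 71.2 FPKM in WT under KNO3 and 28.2 to 54.0 FPKM in the mutants. In *zmnrt1.1b* it was 48.7 to 54.0 FPKM under KCl and 36.7 to 48.8 FPKM under KNO3. In *zmnlp3.1* it was 28.2 to 42.5 FPKM under KCl and 37.8 to 45.6 FPKM under KNO3. The 2 genes for photosystem I reaction center subunit II gave 8.49 to 31.6 FPKM of the sum per library. The photosynthesis sum thus was higher under KNO3 in WT. Its median was higher under KNO3 in *zmnlp3.1* and lower in *zmnrt1.1b*, in the same directions as Zm00001d017147. The Casparian strip sum was lowest in *zmnrt1.1b* under KNO3. The part of either list in the results above was not tested. Fewer cells of a type and less RNA per cell cannot be told apart in such bulk samples.

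The deposited FPKM already equalise the median gene between libraries. The denominator of each library was 0.925 to 1.11 times its recovered reads, and the median ratio of every library was 1.008. Scaled to total reads instead, the median log2 difference of all genes between *zmnlp3.1* and WT under KNO3 was 0.13 in place of −0.00. That comparison had 877 genes higher and 1647 lower as deposited, and 1319 higher and 1243 lower at total read scaling. Of the 84 genes, 1 was higher and 9 lower as deposited, and 2 and 5 at total read scaling. For the difference of the *zmnrt1.1b* response from WT, the split over all genes was 141 higher and 252 lower against 140 and 164, and that of the 84 genes was 0 and 6 in both.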

How the data were processed

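RNA from roots was reverse transcribed with random hexamers after poly-T selection and sequenced as 150 bp paired ends. The authors aligned reads with HISAT2 (v2.0.5) to B73 RefGen_v4, and the processing notes of the submitters also name fastp and StringTie (v1.3.3b). The deposited values are FPKM, and neither the counting tool nor the library scaling is given in the sources used here. Values times gene length were whole multiples of 1 step per library, in 100% of values under 1000 reads within 0.01 reads, and gave the reads per gene. The denominators fitted this way put every library on the same median ratio, so the values as deposited are already scaled by median ratios. All 18 value columns were used.

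Genes with at least 1 FPKM in at least 3 libraries were tested on log2(FPKM + 0.1) with limma (v3.58.1, trend) in R (v4.3.3), in 1 model of the 6 groups with 12 residual degrees of freedom. Two-sided p-values were adjusted after Benjamini-Hochberg across all tested genes. On simulated data for the WT response, 168 of 200 changed genes among 26011 were recovered, with 4 false calls, and the response difference between *zmnrt1.1b* and WT had 11 false calls. Tables and plots were made with pandas (v2.3.3) and matplotlib (v3.10.9) in Python (v3.11.15). Errors of fold changes are standard errors, which on this scale understate changes of weak genes.

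Named are the genes Zm00001d017147 and gene_Zm00001d021278, every gene of the set called in any of the 9 comparisons, the core clock genes averaging 1 FPKM or more, and the most abundant gene of each receptor or zinc finger kind. The LHY, CCA1, ELF3-like and PCL1 genes and the sister genes of a named gene were added after values were seen. The members and lists were chosen with earlier results of these data known. Alternatives changed the pseudocount (1 FPKM), the minimum (0.1 FPKM or none), the scaling (median ratios), the model (replicate block, or just the groups in question) and the test (voom on recovered reads), and left out each library in turn. Scaling to total reads was added after seeing the data. The sequences of the genes and the edited genes' own levels were not analysed here.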

Additional observations from a re-analysis of the deposited data

Results flagged for a closer look

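The results below are differences of the NO3- response between a mutant and WT, on the log2 scale, that passed the limma test of the difference. In *zmnrt1.1b* the response was lower than in WT by −0.94 for Zm00001d003195 (B-box 24), −2.07 for Zm00001d017147 (B-box 25), −0.51 for Zm00001d031662 (CONSTANS-LIKE 15), −0.90 for Zm00001d047204 (LNK1), −1.86 for gene_Zm00001d021278 (B-box 19) and −1.26 for gene_Zm00001d046925 (CONSTANS-LIKE 5). In *zmnlp3.1* it was lower by −1.12 for Zm00001d003195, −0.92 for Zm00001d003477 (cryptochrome-1), −0.79 for gene_Zm00001d014925 (ankyrin-repeat protein), −1.13 for gene_Zm00001d021278, −1.04 for gene_Zm00001d029149 (CONSTANS-LIKE 13) and −0.94 for gene_Zm00001d047632 (phytochrome B). There it was higher by 1.39 for Zm00001d046935 (cryptochrome DASH), 0.59 for Zm00001d051114 (PRR1) and 1.21 for gene_Zm00001d051684 (CONSTANS-LIKE 9). Groups of 3 libraries are too small to look for single outlying libraries.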

How the results depend on the processing

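Of the 49 calls of single genes, none reversed its direction under any alternative, and 21 stayed past the thresholds throughout. At a pseudocount of 1 FPKM 18 calls were lost, and the genes called were 5 in place of 9 for the response in *zmnrt1.1b*, 0 in place of 3 for that in *zmnlp3.1*, 0 in place of 1 for *zmnrt1.1b* against WT under KCl, 1 in place of 3 for *zmnlp3.1* under KCl and 3 in place of 10 for *zmnlp3.1* under KNO3. Over all genes, that pseudocount gave 323 higher and 463 lower in place of 527 and 681 for the *zmnrt1.1b* response. For that of *zmnlp3.1* it gave 244 and 380 in place of 453 and 595. Against WT under KCl it gave 240 and 189 in place of 298 and 238 for *zmnrt1.1b*. There *zmnlp3.1* had 131 and 541 in place of 181 and 771, and under KNO3 381 and 1194 in place of 877 and 1647. Total read scaling lost 7 calls, and with voom 6. The model of only the groups compared lost 5. The median-ratio rescaling and voom on recovered reads lost 0, but neither tests the scaling, because the deposited values already have equal median ratios and voom used their denominators. With the replicate number as a block, 13 in place of 6 genes had a response in *zmnrt1.1b* that differed from WT. Over all genes tested the block gave 1182 in place of 393 there. It lost 4 of the 49 calls, those of Zm00001d031662, Zm00001d051114 and gene_Zm00001d051684 for the response difference and of Zm00001d014863 in *zmnlp3.1* under KCl. Deviations of the 6 same-numbered pairs correlated at −0.07 to 0.27 (other pairs −0.23 to 0.16), so the numbers were not taken as pairs.

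Without 1 library, the genes called were 3 to 5 for the WT response, 5 to 12 for that in *zmnrt1.1b*, 2 to 5 for that in *zmnlp3.1*, 1 to 2 and 3 to 5 for *zmnrt1.1b* against WT under KCl and KNO3, 2 to 4 and 7 to 10 for *zmnlp3.1*, and 3 to 10 and 5 to 10 for the response differences of *zmnrt1.1b* and *zmnlp3.1*. Leaving out WT KNO3 replicate 3 cost the most calls, 11 of 49.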
